A study of Mus musculus with 28 samples.

Results

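Wfs1, Mpped1, Fibcd1, Pou3f1 and Man1a are genes used as markers of the pyramidal neurons of hippocampal field CA1. They were followed as 5 of 19938 named genes on arrays of whole hippocampus, taken by symbol from the array annotation. Each of the 5 had a single transcript cluster, and all 5 passed a filter on dim signals that 11571 of the named genes passed. Wfs1 was lower in cbp+/- than in wild-type hippocampus in every one of the 14 same-numbered pairs of arrays, which held for 28 of the named genes (0.14%). Wfs1 was lower by 0.41 ± 0.05 (SE) on the log2 scale when array set was a block. The other 4 members had smaller differences. With that block, 132 named genes (0.662%) passed the test of genotype over the 4 conditions, Wfs1 and Mpped1 among them. The Mpped1 call was kept in 9 of 28 fits that left out 1 array. The array sets were found in these values. Without the block no member passed.

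The study asked how loss of 1 copy of cbp, the histone deacetylase inhibitor trichostatin A (TSA) and exposure to novelty affect hippocampal transcription. CBP, encoded by Crebbp, is a transcriptional coactivator and histone acetyltransferase. All animals were female C57/DBA F1 hybrids, 3 months old, either wild type or cbp+/- littermates. Each of the 28 arrays held RNA from a pool of 3 to 4 mice, 4 by the extraction protocol, so errors and p-values describe the spread between pools. For each genotype there were 5 standard-cage controls: the first 2 replicates were naive, and numbers 3, 4 and 5 had received vehicle (DMSO and saline). A further 3 arrays per genotype came from caged mice given TSA intraperitoneally at 2.4 mg/kg, 3 from mice given vehicle and novelty, and 3 from mice given TSA and novelty. Tissue was taken 75 min after TSA. Novelty was 1 h alone in a new arena furnished with tubes and toys. In mice given TSA it began 15 min after the injection, and no start is recorded here for those given vehicle. The sources used here neither describe the allele nor limit it to a cell type.

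CA1 pyramidal neurons are the excitatory output cells of the hippocampus proper, sending axons to the subiculum and the entorhinal cortex. They differ from the neurons of CA3 and the dentate gyrus in the genes that set their identity, and the genes followed here have unrelated functions. Wfs1 encodes wolframin, a membrane glycoprotein of the endoplasmic reticulum whose loss causes Wolfram syndrome. Mpped1 encodes a metallophosphoesterase-domain protein. Fibcd1 encodes a transmembrane protein with a fibrinogen-like domain that binds acetylated groups on sugars. Pou3f1, also called Oct6 or SCIP, is a POU-domain transcription factor. Man1a encodes a Golgi alpha-mannosidase that trims N-linked glycans.

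RefSeq (GRCm38.p6) promoter windows were matched for 4 of the 5 members: Wfs1, Mpped1, Fibcd1 and Man1a. The windows of Wfs1, Mpped1 and Fibcd1 are shown because these genes had the larger genotype differences. Each is the 250 bases before an annotated start, on the gene's own strand, 5′ to 3′. Capitals mark TGACG, the core of the cAMP response element through which CREB recruits CBP, and the CCAAT box, on either strand.
Wfs1: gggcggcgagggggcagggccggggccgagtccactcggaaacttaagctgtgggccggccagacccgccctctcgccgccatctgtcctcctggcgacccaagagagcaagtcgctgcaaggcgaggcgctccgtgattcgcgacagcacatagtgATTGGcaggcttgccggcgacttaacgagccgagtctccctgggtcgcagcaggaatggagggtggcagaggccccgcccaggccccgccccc
Mpped1: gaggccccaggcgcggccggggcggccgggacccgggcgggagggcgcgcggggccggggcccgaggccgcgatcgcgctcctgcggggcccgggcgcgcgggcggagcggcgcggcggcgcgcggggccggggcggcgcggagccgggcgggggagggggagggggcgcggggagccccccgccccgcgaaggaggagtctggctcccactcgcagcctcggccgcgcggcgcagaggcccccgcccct
Fibcd1: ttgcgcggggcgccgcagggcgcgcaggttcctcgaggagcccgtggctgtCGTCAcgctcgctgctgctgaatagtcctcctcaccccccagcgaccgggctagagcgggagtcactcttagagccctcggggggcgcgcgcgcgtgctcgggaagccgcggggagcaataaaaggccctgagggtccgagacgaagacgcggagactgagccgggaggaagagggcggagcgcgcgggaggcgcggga
The Wfs1 window lies at chr5:36988983-36989232 on the minus strand, the Mpped1 window at chr15:83779773-83780022 on the plus strand and the Fibcd1 window at chr2:31846006-31846255 on the minus strand. The windows were GC-rich: 69.6% for Wfs1, 88.8% for Mpped1 and 71.6% for Fibcd1, against a median of 52.4% over 32851 promoter windows of the same length. They held 23, 47 and 34 CpG dinucleotides in the same order.

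The full cAMP response element TGACGTCA, present in 1.55% of all windows, was in none of the windows of these 4 genes. TGACG, present in 17.8%, was found once in Fibcd1, on the minus strand 199 bases before the start, and once in Man1a, on the minus strand 47 bases before it. CCAAT, present in 33.8%, was found once in Wfs1, on the minus strand 93 bases before the start, and once in Man1a 79 bases before it. The GC box GGGCGG, in 32.7% of windows, occurred 4 times in Wfs1, 7 times in the Mpped1 window shown and once in Fibcd1. In Man1a it lay on the minus strand 141 and 42 bases before the start. A second Mpped1 window, at chr15:83784579-83784828, had 46.8% GC and none of these motifs. The windows hold matches of letters only, and no binding was measured.

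The values are deposited log2 expression values. They ran from 2.115 to 14.02 over all arrays, with array medians from 5.457 to 5.625. Arrays with the same number in the sample titles deviated together within a condition (correlations of 0.44 to 0.70). Naive arrays of different numbers did so as well (0.33 and 0.51). The arrays fell into 4 sets: set 1 is the naive controls, and sets 2, 3 and 4 join vehicle controls 3, 4 and 5 with replicates 1, 2 and 3 of the other groups. No label names these sets. Genotype differences are given from limma without a block and with array set as a block; both genotypes lie in every set. The sets were found in these values, so the blocked p-values are not independent of that choice. The Crebbp signal did not mark the genotype: it was 0.21 ± 0.12 log2 higher in cbp+/- without the block (SE, adjusted p = 1, limma) and 0.21 ± 0.05 with it (adjusted p = 0.066). Where its probes lie relative to the lesion is not known here. Choroid plexus markers (9 genes) lay on average over 0.9 log2 above their medians over all arrays on 3 arrays. These were wild-type novelty with TSA replicate 1, cbp+/- control replicate 3 and cbp+/- caged TSA replicate 1.

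Wfs1 was the member that differed most between genotypes. In standard-cage controls, wild-type arrays 1 to 5 read 7.67, 7.73, 8.65, 8.39 and 7.90 log2 and cbp+/- arrays 7.47, 7.50, 8.32, 7.92 and 7.57. The naive arrays were lowest and the vehicle-injected replicate 3 was highest in both genotypes, so the groups overlapped although each cbp+/- array lay under the wild-type array of its number. Under TSA in the cage, wild-type arrays read 8.56, 8.38 and 8.16 and cbp+/- arrays 8.49, 7.78 and 7.43. After novelty with vehicle they read 8.88, 8.07 and 8.12 against 8.15, 7.80 and 7.79. After novelty with TSA they read 8.86, 8.22 and 8.22 against 8.47, 7.89 and 7.69. Of all genes, 0.115%, 2.77%, 1.34% and 2.75% were lower in cbp+/- without overlap in these conditions, and none of the 5 members was among them. In each of the last 3 conditions the Wfs1 groups overlapped only through replicate 1, which was the highest array of every group.

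The mean Wfs1 level was 8.07 ± 0.43 (SD, n = 5) in wild-type and 7.75 ± 0.36 in cbp+/- controls. It was 8.36 ± 0.20 against 7.90 ± 0.54 under TSA (SD, n = 3), 8.36 ± 0.45 against 7.91 ± 0.21 after novelty, and 8.43 ± 0.37 against 8.01 ± 0.41 after both. The genotype differences, cbp+/- minus wild type, were -0.31 ± 0.23, -0.46 ± 0.30, -0.44 ± 0.30 and -0.42 ± 0.30 (SE) in that order without a block. None of these passed the test (adjusted p = 1 each, limma). Leaving out 1 array moved them to between -0.45 and -0.17, -0.76 and -0.23, -0.59 and -0.18, and -0.64 and -0.20, all negative. With the block the errors were 0.09 in controls and 0.11 in the other conditions, and the adjusted p-values were 0.652, 0.481, 0.315 and 0.443. Of all named genes, the blocked tests called 0 in controls, 0 under TSA, 1 after novelty (0.00502%, the pseudogene Nlrp5-ps, higher by 0.74) and 0 after both. At an unadjusted p under 0.05 the blocked tests held 826 (4.14%), 1419 (7.12%), 1491 (7.48%) and 1568 genes (7.86%). Wfs1 was among them in each condition, and Mpped1 in each but the controls.

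Averaged over the 4 conditions, the Wfs1 difference was -0.41, which is 0.753 of the wild-type level. Without a block its error was 0.14 and its adjusted p was 1 (limma, unadjusted p = 0.00778), in a comparison that called 0 of 19938 genes (0%) and held 518 (2.6%) at an unadjusted p under 0.05. With the block 2365 genes (11.9%) were under it. With array set as a block the error was 0.05, the 95% interval -0.52 to -0.30 and the adjusted p 0.000343. That comparison called 132 genes (0.662%), of which 100 were lower in cbp+/- (0.502%) and 32 higher (0.16%). Wfs1 had the rank 2 by p among all named genes. With the pairs of same-numbered arrays as the block, the difference was -0.41 ± 0.05 and the adjusted p 0.0049. The titles give the numbers, but the pairing was adopted because such arrays deviated together in these values. Each pair lies within 1 array set. With a block of title numbers taken across all conditions, which puts naive controls with treated arrays of another set, the adjusted p was 0.608.

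Within each array set, every cbp+/- array read lower in Wfs1 than every wild-type array. In set 1 the wild-type arrays lay at 7.67 to 7.73 and the cbp+/- arrays at 7.47 to 7.50. In set 2 they lay at 8.56 to 8.88 against 8.15 to 8.49, in set 3 at 8.07 to 8.39 against 7.78 to 7.92, and in set 4 at 7.90 to 8.22 against 7.43 to 7.79. The mean differences within sets were -0.22, -0.38, -0.42 and -0.48. A lower level in cbp+/- without overlap in all 4 sets was found for 2 of the 19938 genes (0.01%), Wfs1 and Septin9, a cytoskeletal septin. The opposite was found for 1 gene (0.00502%), Zc3hav1, a zinc-finger antiviral protein. Septin9 and Zc3hav1 were named after their values were seen. Over the 14 same-numbered pairs the Wfs1 difference ran from -0.73 to -0.07 with a median of -0.34, and 28 genes (0.14%) were lower in cbp+/- in every pair.

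**Figure D1:**
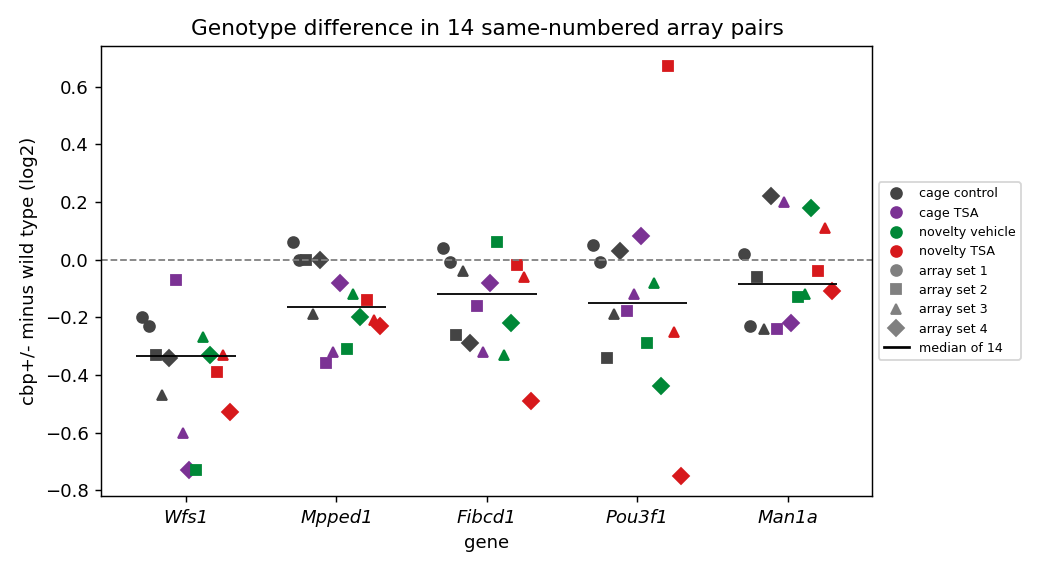
Difference in log2 level between the cbp+/- and the wild-type array of the same number, for each member in each of the 14 pairs, by condition. All 14 Wfs1 points lie under 0, and the Man1a points lie on either side of it.

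Mpped1 differed by less than Wfs1. In controls, wild-type arrays 1 to 5 read 9.36, 9.36, 10.02, 9.67 and 9.34 log2 and cbp+/- arrays 9.43, 9.36, 10.02, 9.48 and 9.34. The genotypes were level there, and replicate 3 was highest in both. Under TSA the arrays read 10.30, 9.76 and 9.48 in wild type against 9.94, 9.44 and 9.40. After novelty they read 10.17, 9.54 and 9.56 against 9.86, 9.42 and 9.36. After novelty with TSA they read 10.11, 9.51 and 9.68 against 9.97, 9.30 and 9.45. Each cbp+/- array was lower than its wild-type partner in these 3 conditions, and the share of all genes for which this held was not counted. The groups overlapped in every condition.

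The Mpped1 differences were -0.02 in controls, -0.25 under TSA, -0.21 after novelty and -0.20 after both, with errors of 0.19 in controls and 0.25 elsewhere without a block. With the block the errors were 0.07 and 0.08, and the adjusted p-values ran from 0.603 to 1 (limma). Over the 4 conditions the difference was -0.17 ± 0.12 (SE) without a block (adjusted p = 1) and -0.17 ± 0.04 with it (95% interval -0.25 to -0.09, adjusted p = 0.039). The call lay close to the threshold. In fits that left out 1 array the difference stayed at -0.19 to -0.15, and the call was kept in 9 of 28 of them (adjusted p 0.017 to 0.106). With the same-numbered pairs as the block the difference was again -0.17 ± 0.04 and the adjusted p 0.0778. The genotype effect under TSA differed from that in controls by -0.23 ± 0.11 with the block, which did not pass the test (adjusted p = 0.948). Of the 14 pairs, 10 were lower in cbp+/-, 3 were equal to 2 decimals and 1 was higher. How many of all genes were lower in as many pairs was not counted.

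Fibcd1 lay between 7.60 and 8.91 log2 in the 14 wild-type arrays (median 8.10) and between 7.59 and 8.78 in the 14 cbp+/- arrays (median 7.87). The ranges overlapped almost wholly, and set 2 held the highest arrays of both genotypes. The difference was -0.11 in controls, -0.18 under TSA, -0.16 after novelty and -0.19 after both. Over the 4 conditions it was -0.16 ± 0.18 (SE) without a block and -0.16 ± 0.05 with it, and it did not pass the test in either fit (adjusted p = 1 and 0.138, limma). The blocked 95% interval was -0.26 to -0.06. Leaving out 1 array moved the average to between -0.24 and -0.09 without the block and between -0.19 and -0.13 with it. Without the block it also turned the sign of the single conditions, for example to between -0.50 and 0.11 under TSA in the cage. Fibcd1 was lower in the cbp+/- array of 12 of 14 pairs (-0.49 to 0.06, median -0.12), and the share of all genes at that count is not known here.

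Pou3f1 lay between 6.91 and 8.02 log2 in wild type (median 7.47) and between 6.71 and 8.46 in cbp+/- (median 7.30, n = 14 each). The highest and the lowest array of all were cbp+/- arrays after novelty with TSA, which read 8.46, 7.31 and 6.71 against 7.79, 7.56 and 7.46 in wild type. The group means there were 7.49 ± 0.89 and 7.60 ± 0.17 (SD, n = 3), the widest and narrowest spread of Pou3f1 in any group. The genotype differences were -0.09, -0.07, -0.27 and -0.11 in controls, TSA, novelty and both. After novelty with TSA, leaving out 1 array moved the difference to between -0.39 and 0.09 with the block and between -0.59 and 0.28 without it, so its sign rested on single arrays: it was lowest without cbp+/- replicate 1 and highest without cbp+/- replicate 3. Over the 4 conditions the difference was -0.13 ± 0.07 with the block (SE, 95% interval -0.28 to 0.01, adjusted p = 0.477, limma) and -0.13 ± 0.16 without it (adjusted p = 1). Leaving out 1 array gave -0.21 to -0.09 with the block and -0.26 to -0.04 without it. Pou3f1 was lower in the cbp+/- array of 10 of 14 pairs, which ran from -0.75 to 0.67. The share of all genes at that count is not known here.

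Man1a lay between 8.01 and 9.04 log2 in wild type (median 8.41) and between 8.16 and 8.89 in cbp+/- (median 8.37, n = 14 each). The highest arrays were the naive controls, which read 8.87 and 9.04 in wild type and 8.89 and 8.81 in cbp+/-. The genotype differences were -0.06, -0.08, -0.02 and -0.02 in the same order. Over the 4 conditions the difference was -0.05 ± 0.05 with the block (SE, 95% interval -0.15 to 0.06, adjusted p = 0.804, limma) and -0.05 ± 0.09 without it (adjusted p = 1). Man1a was lower in the cbp+/- array of 9 of 14 pairs, a count for which the share of all genes is not known here.

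**Figure D2:**
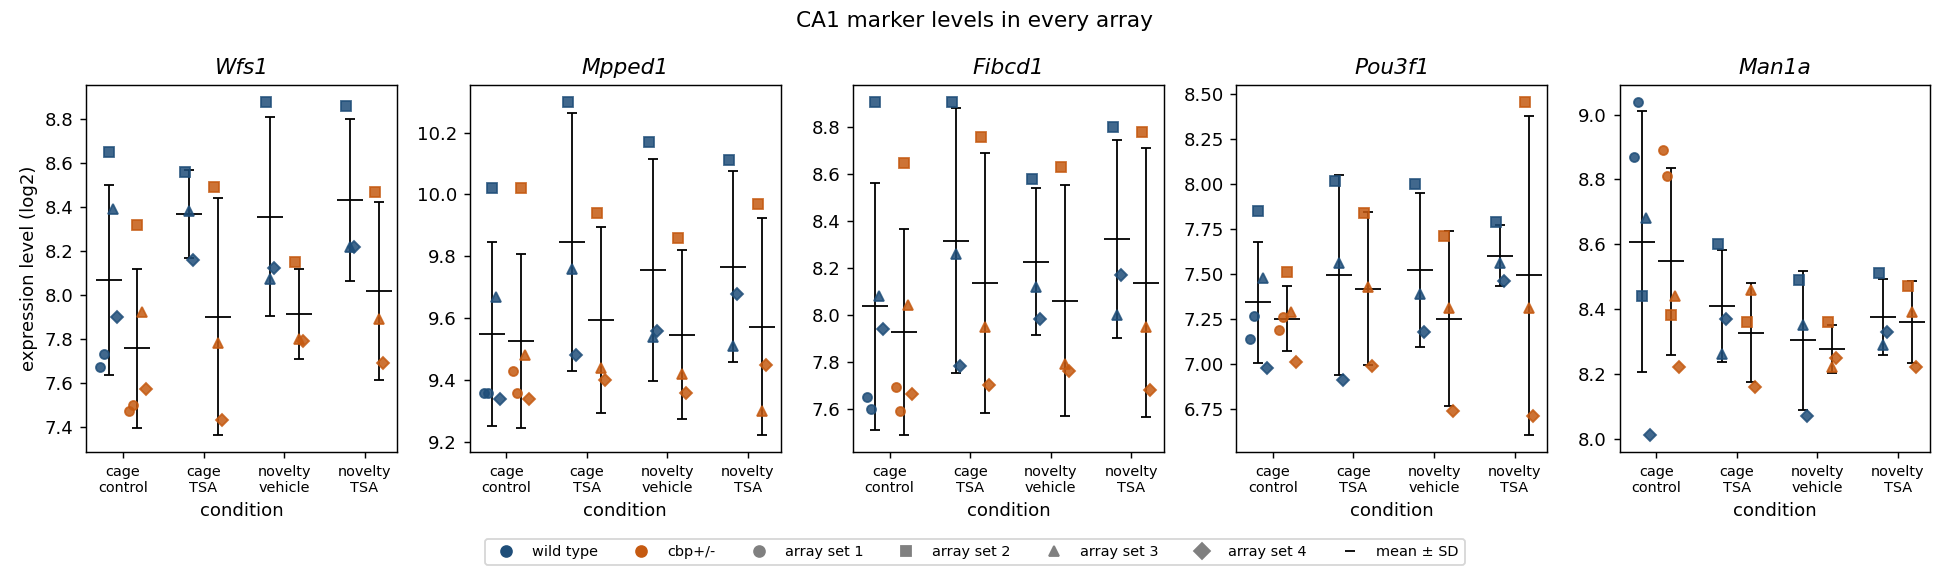
Log2 level of each member on each array, by genotype and condition, with the mean and SD of each group. Marker shapes give the array set. Wild-type and cbp+/- groups overlap in every panel, and set 2 holds the highest Wfs1 array of every group.

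All 5 members had a negative averaged difference, with a median of -0.16, against -0.01 over all named genes, of which 53.9% were negative. Also negative were all 6 thalamic genes, 8 of 9 CA3 genes, 9 of 11 other CA1 genes and 9 of 12 interneuron genes. So were 7 of 8 astrocyte genes, 7 of 9 cortical and subicular genes and 5 of 7 oligodendrocyte genes. The CA2 list had 4 of 6 negative, the dentate list 7 of 12 and the general excitatory list 4 of 7. Of the microglial genes 1 of 8 was negative, of the endothelial genes 2 of 7, of the choroid plexus genes 2 of 9 and of the meningeal genes 3 of 10. The blocked test called 2 of the 5 lower, against 0.502% of all genes lower and 0.662% in either direction. The genotype effect was not shown to change between conditions: the test of any difference between the 4 conditions gave adjusted p-values of 1 for every member without a block and 0.928 to 0.993 with it (limma), and called 0 of 19938 genes either way, with 143 (0.717%) and 853 (4.28%) at an unadjusted p under 0.05. Whole hippocampus was measured, so fewer cells of a type and less RNA per cell cannot be told apart.

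**Figure D3:**
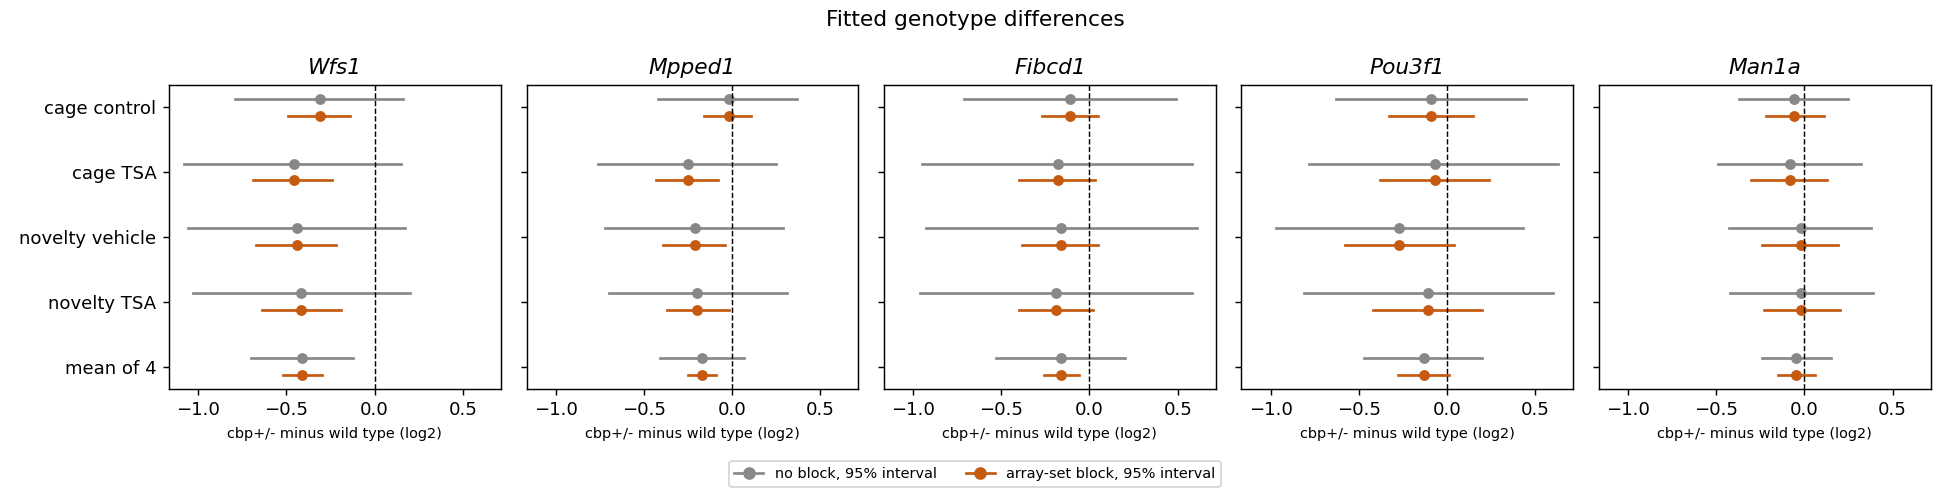
Genotype difference (log2, cbp+/- minus wild type) of each member in each condition and averaged over the 4, with 95% intervals from the fits without and with array set as a block. The points are the same in both fits and the blocked intervals are narrower; with the block the averaged intervals of Wfs1, Mpped1 and Fibcd1, which are not adjusted for the number of genes, lie under 0.

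Between array sets the members moved far more than between genotypes. Wfs1 averaged 7.59, 8.55, 8.06 and 7.86 log2 in sets 1 to 4, Mpped1 9.38, 10.05, 9.51 and 9.45, Fibcd1 7.63, 8.75, 8.02 and 7.83, and Pou3f1 7.22, 7.90, 7.42 and 7.0. Set 2 was highest for these 4 genes. Man1a followed another order, at 8.90, 8.45, 8.39 and 8.20. The sets held 67.2% of the variance of Wfs1, 83.8% of Mpped1, 91% of Fibcd1, 76.7% of Pou3f1 and 79.9% of Man1a. Genotype then held 23.8% for Wfs1, 6.61% for Mpped1, 3.12% for Fibcd1, 2.6% for Pou3f1 and 0.934% for Man1a.

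Across the 28 arrays, which share these sets, Wfs1, Mpped1, Fibcd1 and Pou3f1 correlated pairwise at 0.79 to 0.95 after group means were removed, and each correlated with Man1a at 0.01 to 0.32. After set means were removed as well, the pairwise values of all 5 ran from -0.14 to 0.42. The set medians of the mean deviation of the 5 members were -0.12, 0.53, 0 and -0.26. Those of 7 general excitatory markers were -0.04, 0.26, -0.08 and -0.23, and those of 7 oligodendrocyte markers -0.12, 0.31, -0.12 and -0.03. The other CA1 markers did not follow set 2, at 0.01, 0.04, -0.16 and 0.09. The part of dissection or cell makeup in these set levels was not tested.

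Injected and naive controls differed in Man1a. The 4 naive arrays lay at 8.81 to 9.04 log2. The vehicle-injected arrays read 8.44, 8.68 and 8.01 in wild type and 8.38, 8.44 and 8.22 in cbp+/-. The difference over both genotypes was -0.54 ± 0.11 (SE, adjusted p = 0.0104, limma without a block), in a comparison that called 480 genes (2.41%), 264 of them lower (1.32%). It missed the threshold without wild-type control 2 (adjusted p = 0.0747) or cbp+/- control 1 (0.0728). Wfs1 was 0.53 ± 0.22 higher after injection (adjusted p = 0.238), Fibcd1 0.58 ± 0.28 (0.351), Mpped1 0.27 ± 0.19 (0.609) and Pou3f1 0.14 ± 0.28 (0.9). The naive arrays are set 1, so injection and array set cannot be told apart.

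Neither novelty nor TSA changed a member past the test. Averaged over genotype and drug, the novelty differences without a block were 0.16 for Wfs1, 0.03 for Mpped1, 0.09 for Fibcd1, 0.09 for Pou3f1 and -0.14 for Man1a (adjusted p = 1 each, limma), where 38 of all genes were called (0.191%). With the block they were 0.05, -0.02, -0.03, 0.06 and -0.04 (adjusted p 0.914 to 0.96), where 95 genes were called (0.476%). The TSA differences averaged over genotype and housing were 0.15, 0.10, 0.17, 0.16 and -0.07 in the same order (adjusted p 0.91 to 0.967), where 132 genes were called (0.662%). With the block they were 0.05, 0.05, 0.05, 0.13 and 0.04 (adjusted p 0.426 to 0.791), where 899 genes were called (4.51%). The comparison with controls mixes sets in the fit without the block, because the naive arrays are in the control group only.

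The other genes of CA1 neurons had smaller genotype differences than Wfs1. Of 11 measured CA1 genes outside the 5 members, 1 was lower in the averaged comparison with the block and 0 higher, with a median of -0.06 and 9 negative. The 1 was Tyro3, a receptor tyrosine kinase of the TAM family, at -0.14 ± 0.03 (SE, adjusted p = 0.0424, limma). Spink8, a protease inhibitor, was at 0.05, the secreted signal Lefty1 at -0.06 and Ccn3, a secreted matricellular protein, at -0.13. Neurod6, a basic helix-loop-helix factor of pyramidal neurons, was at 0.20 ± 0.06 (adjusted p = 0.183) and had the largest positive value of the list. None of 7 general excitatory markers passed, with a median of -0.01. Slc17a7, the vesicular glutamate transporter VGLUT1, was at -0.01, the synaptic kinase Camk2a at -0.02 and the transcription factor Neurod2 at 0. These 3 genes are also expressed outside CA1.

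Among the markers of the other hippocampal fields, CA2 (0 of 6 past the blocked test, median -0.06) held the closest to the threshold, Rgs14, a regulator of G-protein signalling, at -0.23 ± 0.06 (SE, adjusted p = 0.0681, limma), beside Pcp4, a calmodulin-binding peptide, at -0.06 and the adhesion protein Amigo2 at 0.11. In CA3 0 of 9 passed, with a median of -0.04. Bok, of the BCL2 family, was at -0.01, the adhesion protein Nectin3 at 0.05 and the copine Cpne4 at -0.07. The dentate list (median -0.02) had 1 of 12, Tdo2, a tryptophan-degrading enzyme, at -0.29 ± 0.07 (adjusted p = 0.0347). Prox1, the factor that sets granule cell identity, was at 0.04. The cortical and subicular list (median -0.09) had 1 of 9, Lamp5, a lysosome-associated membrane protein of neurons, at -0.35 ± 0.06 (adjusted p = 0.00223). The thalamic list had 0 of 6, with a median of -0.06, and its transcription factor Tcf7l2 was at -0.05.

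Interneuron markers held 0 of 12 past the test, with a median of -0.06. Gad1 and Gad2, which make GABA, were at -0.07 and -0.09 and the peptide gene Sst at -0.04. The astrocyte list had 1 of 8, Gfap, an intermediate filament, at -0.28 ± 0.06 (SE, adjusted p = 0.0127, limma), while the water channel Aqp4 was at -0.05 and the glycolytic enzyme Aldoc at -0.11. Of the 8 astrocyte genes 7 were negative, with a median of -0.08, which lies below that of the other CA1 genes (-0.06). Oligodendrocyte markers held 0 of 7 (median -0.09), with the myelin proteins Mbp at -0.12, Mog at -0.09 and Mag at -0.14. Microglial and endothelial markers held 0 of 8 and 0 of 7, with medians of 0.03 and 0.02. The microglial receptors Cx3cr1 and P2ry12 were at 0.10 and 0, and the endothelial genes Cldn5, Pecam1 and Flt1 at -0.03, -0.05 and 0.04. Cldn5 and Pecam1 were the only 2 negative genes of the endothelial list, whose values ran up to 0.08. Choroid plexus markers held 0 of 9 (median 0.07), and Ttr, the thyroid hormone carrier made there, was at 0.56 ± 0.56. The meningeal list (median 0.04) had 1 of 10, the proteoglycan Dcn, at -0.31 ± 0.04 (adjusted p = 0.000522), with the collagens Col1a1 and Col1a2 at 0.05 and 0.04. Tdo2, Lamp5, Gfap and Dcn were all lower in cbp+/-, and without the block 0 genes passed in every list.

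The choroid plexus list differed between genotypes in the direction it took by condition, with 0 of 9 genes past the test in each. All 9 were higher in cbp+/- in controls (median 0.36) and under TSA in the cage (0.22), 5 of 9 were negative after novelty (-0.01) and 8 of 9 after novelty with TSA (-0.22). Wfs1 was lower in cbp+/- in all 4. The list's mean deviation spanned -0.20 to 1.85 on wild-type and -0.18 to 1.93 on cbp+/- arrays. Without the 3 arrays over 0.9 the blocked comparison called 118 genes, among them 1 of the 5 members, Wfs1. The general excitatory list spanned -0.27 to 0.38 on wild-type and -0.41 to 0.39 on cbp+/- arrays, and the CA3 list -0.07 to 0.10 and -0.22 to 0.08. The 5 members spanned -0.23 to 0.62 and -0.33 to 0.57. The part of cell makeup in the Wfs1 difference was not tested.

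**Figure D4:**
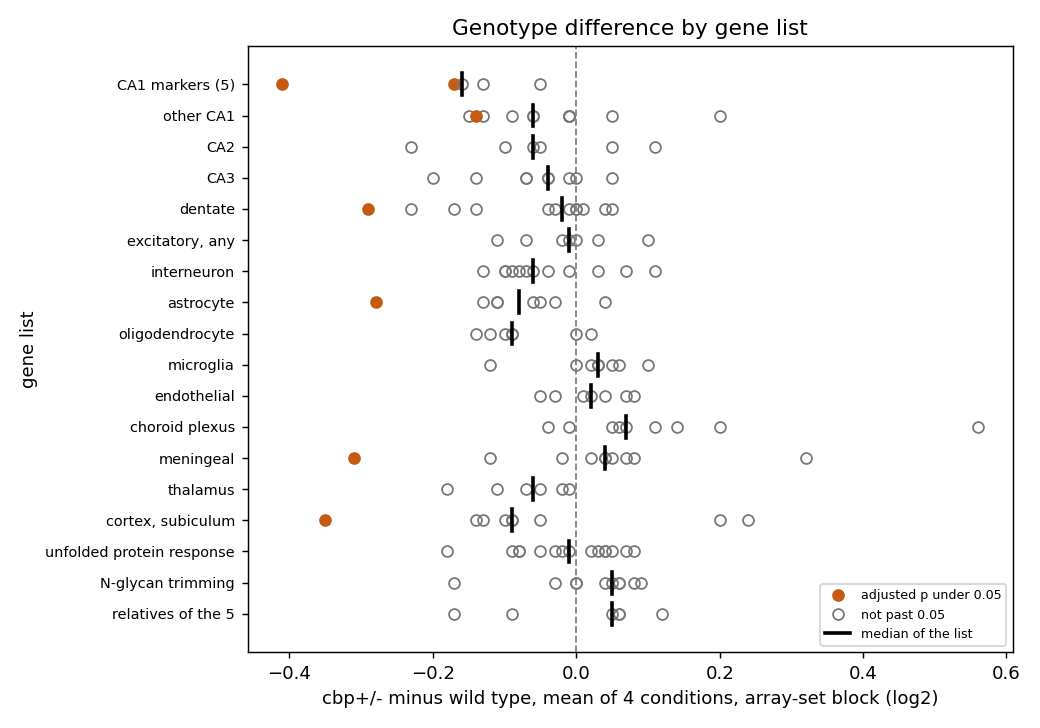
Averaged genotype difference (log2, cbp+/- minus wild type, array set as a block) of each measured gene in the member and marker lists, with the list medians and the genes past an adjusted p of 0.05 marked. The lists centre near 0, from -0.16 for the 5 members to 0.07 for the choroid plexus, and Wfs1 is the lowest member.

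Genes that work with wolframin or with the Man1a enzyme did not pass the genotype test. Of 15 genes of the endoplasmic reticulum stress response, 0 passed and the median was -0.01. The chaperones Hspa5 and Hsp90b1 were at 0.04 and 0.07, and Xbp1, a transcription factor of the unfolded protein response, at -0.18 ± 0.08 (SE, adjusted p = 0.349, limma). Of 10 genes of N-glycan trimming 0 passed, with a median of 0.05. Man1b1, an endoplasmic reticulum mannosidase, was at 0.09. Of 6 relatives of the members 0 passed: Man1c1 was at -0.17 ± 0.04 (adjusted p = 0.073), Man1a2 at 0.06, Mpped2 at 0.06, Pou3f2 at 0.12, Pou3f3 at -0.09 and Pou3f4 at 0.05.

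The same lists held genes that rose with treatment while the members did not pass. With novelty, 4 of the 15 endoplasmic reticulum genes rose with the block and 0 fell (median 0.13), against 0.471% of all genes that rose. Hspa5 rose by 0.38 ± 0.05 (SE, adjusted p = 1.56e-05, limma), Sdf2l1, an endoplasmic reticulum quality-control protein, by 0.35 ± 0.06 (adjusted p = 0.00243), Creld2 by 0.23 ± 0.04 and Manf, a secreted stress-response factor, by 0.20 ± 0.05. Without the block, Hspa5 at 0.37 ± 0.05 and Sdf2l1 at 0.43 ± 0.08 passed. Wfs1, at 0.05 with the block, was not among them. With TSA, where 2.66% of all genes rose and 1.85% fell with the block, Creld2 rose by 0.22 ± 0.04 and Ern1, the stress sensor IRE1, by 0.18 ± 0.05 with the block. Pou3f4 rose by 0.34 ± 0.07 (adjusted p = 0.0024) and Man1c1 by 0.18 ± 0.05, while Ganab, a glucosidase of glycan trimming, fell by 0.12 (adjusted p = 0.0393). Of the other CA1 genes, Neurod6 fell by 0.26 with the block (adjusted p = 0.0268). Without the block only Creld2 and Pou3f4 of these genes passed with TSA, and Ern1, Man1c1, Ganab and Neurod6 did not. Pou3f1, beside Pou3f4, was at 0.13 with TSA and Man1a, beside Man1c1, at 0.04. The genes of this paragraph other than the members were named after their values were seen.

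After group and array-set means were removed, the genes whose 28 array values were most like Wfs1 were Tbc1d7 (Pearson r = 0.87), Zdhhc9 (0.86), Snap91 (0.84), Syn1 (0.83) and Kndc1 (0.81). Snap91 and Syn1 encode proteins of synaptic vesicle cycling. Mpped1 was most like Klk7, Nbl1, Lrp5, Chrna1 and Wdr66 (0.79, 0.79, 0.78, 0.77 and 0.77). Fibcd1 was most like Stag3, Med25, Rbpms, Btbd6 and Gpr27 (0.83, 0.80, 0.79, 0.77 and 0.77). Pou3f1 was most like Erich1, Capn5, Chrna7, Gtf2ird2 and Snph (0.84, 0.83, 0.81, 0.77 and 0.75), of which Chrna7 encodes a nicotinic receptor subunit. Man1a was most like Qk, an RNA-binding protein of glia, and Serpinb6a, Mia3, Kbtbd7 and Cbwd1 (0.86, 0.85, 0.85, 0.83 and 0.82). No member was among the 5 genes most like another member. These values are the highest of 19938 and are given as a description.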

How the data were processed

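Hippocampal RNA was hybridised to 28 Affymetrix Mouse Gene 1.0 ST arrays, and groups came from the sample titles. The values are log2 expression as deposited by the authors, 1 per transcript cluster and array. Per the labels' protocols the authors used GeneSpring GX 11, and per the submitters' processing notes RMA, which corrects background, normalizes and summarises probes. Neither the RMA version nor a genome build is given in the sources used here. A shift shared by most transcripts would be removed by such normalization. The number of arrays, not counts, limits the precision.

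Of 35556 clusters, 21789 had 1 gene symbol, 1621 several and 12146 no entry. The cluster with the highest mean was kept per gene, leaving 19938 genes, of which 19856 matched RefSeq identifiers. limma 3.58.1 in R 4.3.3 was fitted to all genes and arrays with 1 mean per group and empirical Bayes variances, two-sided, with Benjamini-Hochberg adjustment over all genes and a threshold of 0.05. Injected and naive controls were separate groups in 1 further fit. The fits were tested on simulated data with the same array sets built in, which cannot test how the sets were found.

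Members, lists and array sets were chosen with earlier results of these data known. Named were all members, list genes past the threshold between genotypes, up to the first 3 measured genes of a list, and the 5 genes most like each member; exceptions are stated. Same-numbered arrays of the genotypes deviated together within each condition. Their correlations were 0.44 to 0.70 in controls (5 pairs) and 0.52 to 0.70 in the other conditions (3 pairs each). Other numbers gave -0.58 to 0.51. Deviations cancel within a group, which pushes the values for other numbers down where those for the same number are high. Among the naive controls, wild-type 2 with cbp+/- 1 gave 0.51, above the same-number values of 0.49 and 0.44. The numbers were still taken to pair arrays within a condition. Across groups, arrays of 1 set correlated at 0.33 to 0.80 and those of different sets at -0.63 to 0.43. The block lowered the median residual SD from 0.184 to 0.126. The alternatives were other blocks, array weights, robust variances, filters, repeated normalization and omitted arrays or sets.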

Additional observations from a re-analysis of the deposited data

Results flagged for a closer look

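In the cbp+/- standard-cage controls, the Mpped1 level of replicate 3 stood apart from the others: it was 10.02 log2, the next array was at 9.48, and the gap was 0.8 of the whole range of the 5 arrays. The same array had the highest choroid plexus markers of all arrays (mean deviation 1.93), and it belongs to array set 2, in which every Mpped1 value was 9.86 or higher. The wild-type replicate 3 also read 10.02. The members were examined in this way in 10 combinations of gene and control group, and chance alone passes such a limit now and then. The part of the raised markers in this value was not tested.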

How the results depend on the processing

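Without a block, 0 of the 5 members passed in the genotype difference over the 4 conditions, and 0 of all genes. With array set as a block 2 members and 132 genes passed. With the block, 1 member passed with vehicle controls only (88 genes), which is the same fit as the one without set 1. It also passed without set 2, 3 or 4 (139, 54 and 14 genes) and without the 3 choroid plexus arrays (118 genes). With the pair of same-numbered arrays as the block 1 member and 53 genes passed. Leaving out 1 array at a time with the block gave 1 to 2 members and 78 to 177 genes. That 1 member was Wfs1, which passed in 28 of 28 such fits (-0.44 to -0.38, adjusted p 7.76e-05 to 0.00164, limma) and without each set (adjusted p 0.00198, 0.00298, 0.00728 and 0.0283). With the title number as the replicate block 0 members and 0 genes passed, and with array weights 0 members and 8 genes. For vehicle against naive controls, 1 member and 480 genes passed, against 5 members and 7176 genes with the title-number block, 2 members and 2805 genes with array weights, and 0 to 1 members without 1 control. No other alternative changed a count of members. Over all settings the genes called ran from 23 to 112 for novelty (38 without a block), from 48 to 953 for TSA (132) and from 112 to 7176 for vehicle against naive. Array set as a block could not be fitted to the naive comparison. Of 1780 single-gene values under alternatives, 146 changed sign, of which 0 passed the threshold in either setting, and none was for genotype over the 4 conditions. The restriction to vehicle controls, the pair block and the block with omitted arrays or choroid plexus arrays include choices made after seeing the data.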
